A study of Mus musculus with 5 samples.

Results

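The mitochondrial carriers of the SLC25 family were followed in mouse embryonic fibroblasts labelled wild type or knockout for SIRT3, a protein deacetylase of the mitochondrial matrix. Members were taken by symbol: every gene of the deposited table named Slc25a with a number, and the uncoupling protein genes Ucp1, Ucp2 and Ucp3. This gave 47 genes, 44 of them Slc25a genes, of the 23337 genes in the table. Of these 47, 40 had a value of 10 or more normalized reads in at least 2 of the 5 libraries and were tested, and 7 were below that level. Mcart1 and Mcart6, which the table lists under older symbols for Slc25a51 and Slc25a53, fell outside the rule.

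The study sequenced polyadenylated RNA from fibroblasts of mouse strain 129Sv immortalized by SV40T, the tumour antigen of a virus, which inactivates p53 and the retinoblastoma protein. There were 3 libraries labelled SIRT3 WT and 2 labelled SIRT3 KO (genotype SIRT3 -/-), all grown under normal conditions, so SV40 immortalization and strain are shared by both groups. By its title, the study asked where cells lacking SIRT3 are vulnerable and points to the making of nucleotides. The design text speaks of WT and KO lines, and nothing says whether libraries with the same label came from separate cultures or embryos. The p-values therefore rest on a library-to-library spread that may be technical only.

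Mitochondrial carriers are small proteins of the inner mitochondrial membrane, each built of a repeated pair of helices that forms a path for a single substrate at a time. They exchange nucleotides, phosphate, amino acids, carboxylates, cofactors and iron between the matrix and the cytosol, which the membrane otherwise keeps apart. In fibroblasts the ADP/ATP and phosphate carriers feed the ATP synthase, and the malate, aspartate and citrate carriers link the tricarboxylic acid cycle to cytosolic redox balance and lipid synthesis. Several carriers occur as paralogs with the same substrate, whose balance differs between tissues.

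The libraries held 33473103 to 41758681 reads in the table, with both libraries labelled KO below the 3 labelled WT. Sirt3 itself stood at 169.7, 149 and 118 normalized reads (counts divided by the authors' size factor of the library) in the libraries labelled WT and at 200.4 and 217 in those labelled KO. Sirt3 was thus higher in both libraries labelled KO, without overlap (log2 fold change 0.53, SE 0.15, adjusted p = 0.00445 by limma), which goes against the label. Its 91 neighbouring genes had a median of 0.31, and relative to them Sirt3 stood at 0.22. The labels do not give the part of the gene that the knockout removes. Of 12 fibroblast markers 11 passed the filter on low values, with summed values of 636425 to 652042 normalized reads in the libraries labelled WT and 592154 to 632689 in those labelled KO. All 6 adipocyte markers were below the filter, and Adipoq, Cidea and Lep were at 0 in every library. Of other cell types, 2 of 9 markers for striated muscle, 1 of 6 for epithelium, 3 of 4 for endothelium and 1 of 4 for neurons passed the filter. For macrophages and blood 2 of 5 passed, for germ cells 1 of 3 and for liver 0 of 4. Summed markers of striated muscle were 42.5 to 50.4 and 150.1 to 179.5 normalized reads in the libraries labelled WT and KO, those of epithelium 13.0 to 14.8 and 35.2 to 36.7, those of endothelium 25.7 to 34.2 and 65.6 to 66.1, and those of neurons, almost all from Tubb3, 916 to 1005 and 547.1 to 547.3. Summed germ cell markers were 45.5 to 66.6 and 22.2 to 29.7 normalized reads in the libraries labelled WT and KO, those of macrophages and blood 79.1 to 89.7 and 84.8 to 108, and those of liver 0 to 3.54 and 4.41 to 4.45. Their part in the results was not tested.

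The 4 most abundant carrier transcripts were the same in every library, but their proportions differed between the labels. Summed over the 47 genes, RPKM (a level scaled to transcript length and sequencing depth, which can be compared between genes) was 1872, 1912 and 1898 in the libraries labelled WT and 2059 and 1970.4 in those labelled KO. The phosphate carrier gene Slc25a3, the ADP/ATP carrier genes Slc25a5 and Slc25a4, and Slc25a39 together made up 73.6% to 74.4% of that sum in all 5 libraries. Within it, Slc25a3 took 33.0%, 33.5% and 33.4% of the sum in the libraries labelled WT and 25.6% and 25.9% in those labelled KO. Slc25a4 took 10.3%, 9.72% and 10.2% in the libraries labelled WT and 18.5% and 17.6% in those labelled KO. Both shares lay apart between the labels. Below these 4 genes, the levels of the tested members ranged from Slc25a24 at 52.8, 57.0 and 54.0 RPKM in the libraries labelled WT to Slc25a35 at 0.249, 0.366 and 0.137 RPKM. The 7 members below the filter were lower still, from Slc25a2 at 0.089, 0.159 and 0.149 RPKM to Slc25a31, which was at 0 in every library.

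**Figure D1:**
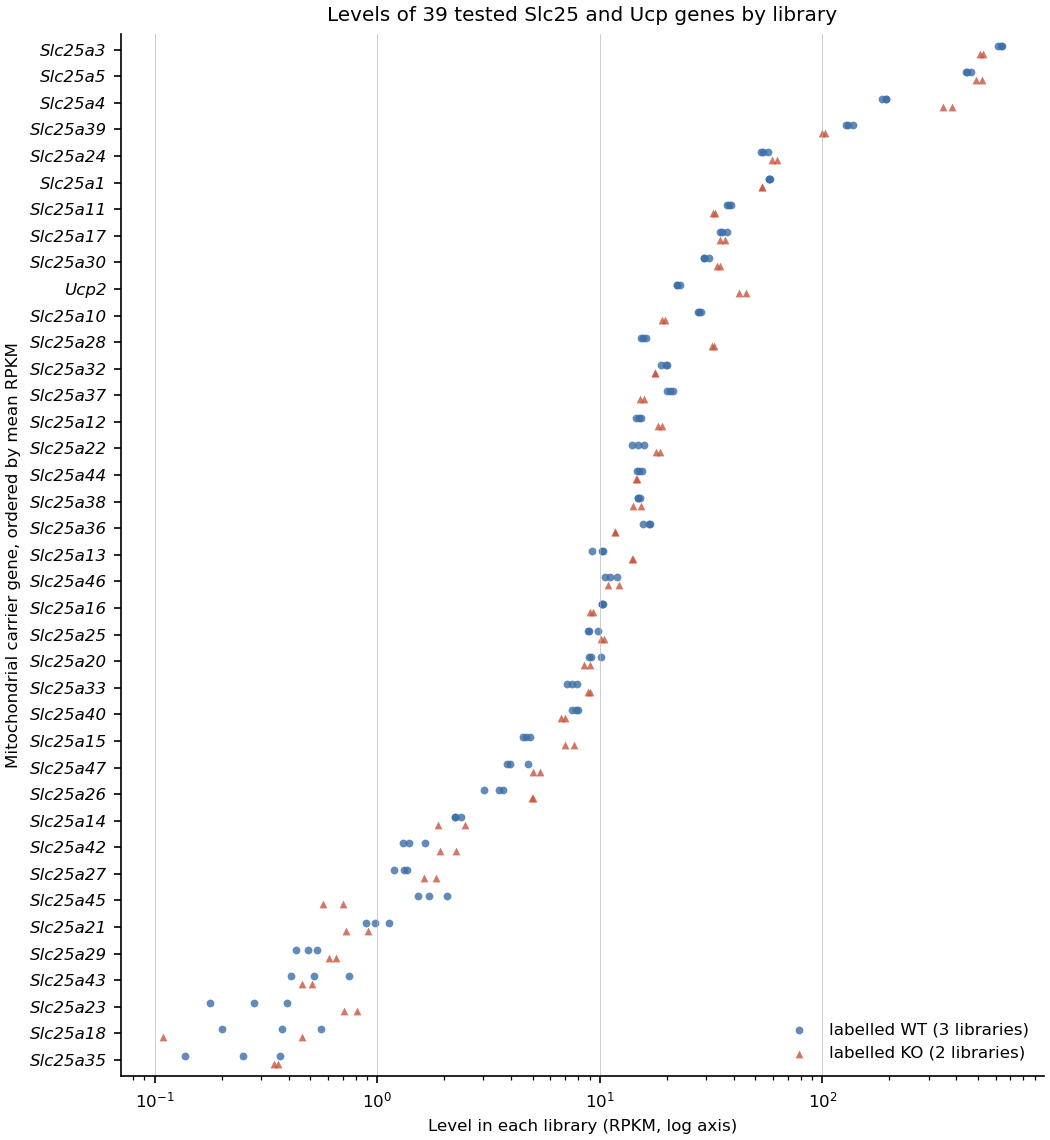
Level of 39 tested carrier genes in each library, in RPKM on a log axis, with genes ordered by their mean. Circles are the 3 libraries labelled WT and triangles the 2 labelled KO. Slc25a3, Slc25a5, Slc25a4 and Slc25a39 lead in every library, and the triangles of Slc25a4, Ucp2 and Slc25a28 stand to the right of the circles.

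Of the 40 tested members, 17 rose and 12 fell under the label KO (limma, adjusted p below 0.05), and 11 were not called. The 72.5% called stood beside 65.3% of all 13062 genes tested, the 42.5% higher beside 32.6%, and the 30.0% lower beside 32.6%. A call with a difference of at least 1.5-fold was made for 6 members (15.0%), beside 24.4% of all genes. The groups did not overlap in 30 members (75.0%), beside 75.4% of all genes. The median log2 fold change, libraries labelled KO minus those labelled WT, was 0.027 over the members, -0.0023 over all genes and -0.094 over 176 other solute carrier genes, of which 49 were higher and 70 lower. The carrier family as a whole was therefore close to the background of this comparison, and what follows describes its members. The substrate groups hold 4 to 8 tested genes each, and differences between them were not tested. A lower count in a bulk library can come from fewer cells that express a gene or from less RNA per cell, which cannot be told apart here.

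**Figure D2:**
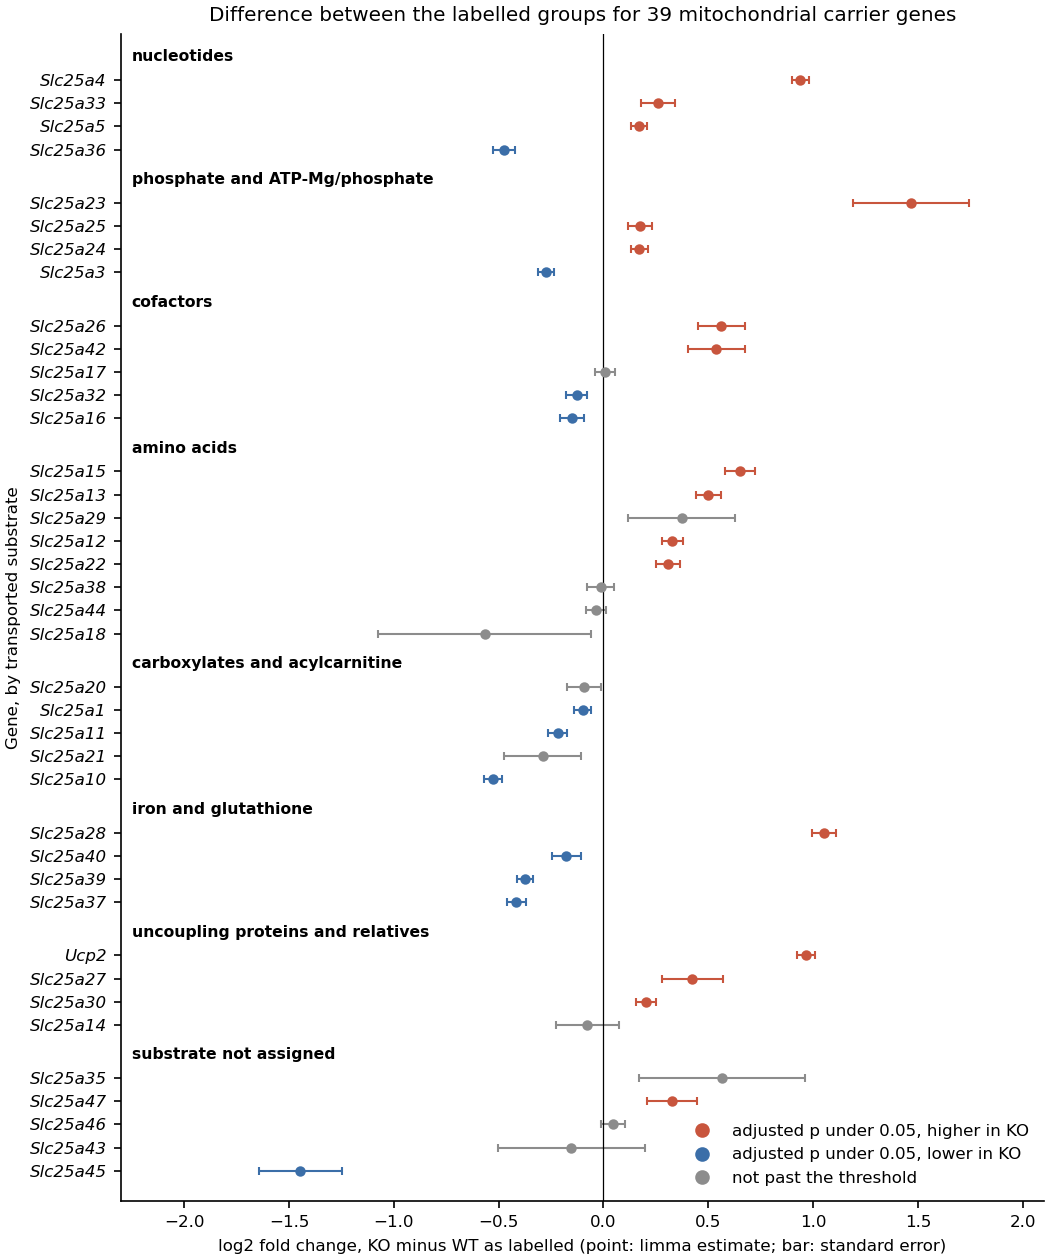
Log2 fold change of 39 tested carrier genes, libraries labelled KO minus libraries labelled WT, grouped by transported substrate. Points are limma estimates and bars standard errors, red for genes called higher, blue for genes called lower and grey for genes not called at an adjusted p of 0.05. Called amino acid carriers lie to the right of 0 and called carboxylate carriers to the left.

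The promoter windows of 5 genes are shown because 3 of them, Slc25a4, Slc25a28 and Ucp2, were the rises with the smallest adjusted p in the family, and because Slc25a33 and Slc25a36, which encode pyrimidine nucleotide carriers, moved in opposite directions. Each window runs 5′ to 3′ on the gene's strand over 300 bases around a RefSeq transcript start (GRCm38.p6), most of them upstream, and capitals mark the letters of the motifs searched on both strands: the GC box spelled GGGCGG, the E-box spelled CACGTG, the ETS motif spelled CCGGAAG, the cyclic AMP element spelled TGACGTCA, the nuclear receptor half-site spelled AAGGTCA, the TATA box spelled TATAAA and the CCAAT box. A GC box on the other strand reads CCGCCC.
Slc25a4, chr8:46211013-46211312, minus strand: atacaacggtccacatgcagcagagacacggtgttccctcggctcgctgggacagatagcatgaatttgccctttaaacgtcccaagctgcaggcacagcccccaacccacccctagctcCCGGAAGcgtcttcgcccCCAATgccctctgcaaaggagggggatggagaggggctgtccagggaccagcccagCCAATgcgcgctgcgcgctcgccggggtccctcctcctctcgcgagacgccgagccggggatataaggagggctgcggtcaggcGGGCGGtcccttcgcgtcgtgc
Slc25a28, chr19:43674832-43675131, minus strand: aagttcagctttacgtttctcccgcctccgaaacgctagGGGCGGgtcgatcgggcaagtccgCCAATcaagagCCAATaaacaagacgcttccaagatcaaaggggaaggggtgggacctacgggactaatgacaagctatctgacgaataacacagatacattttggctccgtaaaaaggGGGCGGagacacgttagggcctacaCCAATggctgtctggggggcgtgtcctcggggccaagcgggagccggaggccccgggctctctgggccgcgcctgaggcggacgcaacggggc
Ucp2, chr7:100493108-100493407, plus strand: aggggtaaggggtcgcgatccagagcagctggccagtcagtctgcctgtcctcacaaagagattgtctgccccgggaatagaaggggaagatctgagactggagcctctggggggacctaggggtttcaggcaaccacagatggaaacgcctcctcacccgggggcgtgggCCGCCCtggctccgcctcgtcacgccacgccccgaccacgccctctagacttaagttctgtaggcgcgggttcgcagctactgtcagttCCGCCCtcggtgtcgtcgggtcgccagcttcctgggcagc
Slc25a33, chr4:149774218-149774517, minus strand: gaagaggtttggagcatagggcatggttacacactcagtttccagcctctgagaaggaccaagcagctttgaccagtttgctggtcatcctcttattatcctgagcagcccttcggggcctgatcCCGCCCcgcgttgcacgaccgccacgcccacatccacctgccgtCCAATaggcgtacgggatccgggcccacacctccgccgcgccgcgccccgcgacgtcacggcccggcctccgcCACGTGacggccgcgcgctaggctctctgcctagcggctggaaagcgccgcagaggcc
Slc25a36, chr9:97110992-97111291, minus strand: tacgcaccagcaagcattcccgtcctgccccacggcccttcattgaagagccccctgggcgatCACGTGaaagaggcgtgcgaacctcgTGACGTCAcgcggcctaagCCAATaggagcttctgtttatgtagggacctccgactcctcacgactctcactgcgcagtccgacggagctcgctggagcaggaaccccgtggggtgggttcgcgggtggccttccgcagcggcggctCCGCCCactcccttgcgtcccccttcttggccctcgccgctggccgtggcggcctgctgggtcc

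All 5 windows held at least 1 GC box, and the windows of Slc25a28 and Ucp2 held 2. The windows of Slc25a33 and Slc25a36 each held 1 E-box, 1 GC box and 1 CCAAT box, and that of Slc25a36 also held a cyclic AMP element. Only the Slc25a4 window among the 5 held the ETS motif. RefSeq windows were found for 37 member genes, and the tested ones had 41 windows in all. The GC box was in 82.9% of these 41 windows, beside 62.9% of 11827 windows of all tested genes and 35.7% of all 32851 windows in the table. For the E-box the shares were 17.1%, 9.95% and 7.15% in the same order, for the ETS motif 14.6%, 16.5% and 8.86%, and for the CCAAT box 48.8%, 38.0% and 37.4%. The cyclic AMP element was in 4.88% of the member windows and 3.04% of those of all tested genes, the TATA box in 4.88% and 7.26%, and the half-site AAGGTCA in 0 of the 41 member windows and 3.01% of those of all tested genes. These matches describe letters in a window and not binding.

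The ADP/ATP carriers, which export ATP made in the matrix in exchange for cytosolic ADP, were both higher in the libraries labelled KO, Slc25a4 by the larger factor. Of 4 tested nucleotide carriers in all, 3 rose and 1 fell, a share called of 100% beside 65.3% of all genes. Slc25a4 encodes ANT1, the form that dominates in heart and muscle. At chr8:46207168-46211062, it had 7869, 7607 and 7889 normalized reads in the libraries labelled WT and 15561 and 14339.6 in those labelled KO. Both libraries labelled KO lay far above the 3 labelled WT, a 1.92-fold difference of means (log2 fold change 0.94, SE 0.040, adjusted p = 1.04e-14 by limma). Genes around Slc25a4 were also higher: the 27 other tested genes that start within 5 Mb had a median log2 fold change of 0.61, and relative to that median Slc25a4 stood at 0.33, above 25 of the 27. Slc25a5 (chrX:36795597-36798808) encodes ANT2, the form of dividing cells. It had 20102, 21381 and 20445 normalized reads in the libraries labelled WT and 23718 and 22744 in those labelled KO. These groups did not overlap either, but the difference was 1.13-fold (log2 fold change 0.17, SE 0.039, adjusted p = 5.78e-04 by limma), against a neighbourhood median of -0.13. Of the Slc25a5 transcript, 46.6% of the 50-base windows also occur in 9 other annotated genes, among them the pseudogene Slc25a5-ps, so its reads may be split between copies. The testis form Slc25a31 was at 0 in all 5 libraries, where 3 reads would be 2.65 to 3.34 normalized reads.

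In RPKM the make-up of the ADP/ATP carrier transcripts moved towards ANT1. Slc25a4 made up 30.5, 28.5 and 30.2% of the summed RPKM of the 3 genes in the libraries labelled WT and 42.3 and 41.4% in those labelled KO. The mean share thus went from 29.7% ± 1.07 (SD, n = 3) to 41.9% ± 0.685 (SD, n = 2), 12.2 percentage points higher. An exact permutation test over the 10 ways to divide 5 libraries gave a two-sided p of 0.2. This p is the smaller tail doubled, and 0.2 is the smallest value that this form of the test allows. The summed level of the trio was 642 ± 10.1 RPKM in the libraries labelled WT and 870.3 ± 44.0 RPKM in those labelled KO. The shares and the sum depend on how reads that match both Slc25a5 and other genes were counted, which is not given in the sources used.

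The pyrimidine nucleotide carriers, which bring UTP, CTP and thymidine nucleotides into the matrix for mitochondrial DNA and RNA synthesis, moved in opposite directions. Slc25a33 (chr4:149744036-149774267), a carrier induced by insulin-like growth factor signalling, had 518, 494 and 547 normalized reads in the libraries labelled WT and 613 and 631 in those labelled KO. It was 1.2-fold higher in the latter, without overlap (log2 fold change 0.26, SE 0.079, adjusted p = 0.00684 by limma). Slc25a36 (chr9:97075281-97111041) had 1763, 1888 and 1907 normalized reads under the label WT and 1323 and 1340.0 under the label KO. Here both libraries labelled KO were below all 3 labelled WT, by 1.39-fold (log2 fold change -0.48, SE 0.053, adjusted p = 8.16e-08 by limma). Relative to neighbouring genes the values were 0.33 for Slc25a33 and -0.36 for Slc25a36, with the same signs. The share of Slc25a33 in the summed RPKM of the pair was 32.4, 29.9 and 31.9% in the libraries labelled WT and 43.1 and 43.4% in those labelled KO. That is a rise in mean share of 11.9 percentage points, with the smallest p the exact permutation test allows (0.2). The Slc25a33 call was lost in DESeq2 on the recovered reads of 4 libraries (adjusted p = 0.109). Of the 50-base windows, 12.6% of those of Slc25a33 and 11.8% of those of Slc25a36 occur in another annotated gene.

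Among phosphate carriers, the single proton-coupled carrier fell and 3 ATP-Mg/phosphate carriers rose. The share of these 4 tested genes called was 100%, beside 65.3% of all genes. Slc25a3 (chr10:91116574-91124046) supplies the phosphate for ATP synthesis and also carries copper, and it was the most abundant carrier transcript under both labels. It had 34481, 35801 and 35347 normalized reads in the libraries labelled WT and 29370.4 and 28807 in those labelled KO. The groups lay apart by 1.21-fold, lower in the libraries labelled KO (log2 fold change -0.28, SE 0.037, adjusted p = 1.20e-06 by limma). The 51 genes around it had a median of -0.29, and relative to them Slc25a3 stood at 0.014, at the level of its neighbourhood.

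The ATP-Mg/phosphate carriers are calcium-regulated and set the adenine nucleotide pool of the matrix. Slc25a24 (chr3:109123149-109168409), the most abundant of them, had 6595, 7128 and 6740.4 normalized reads in the libraries labelled WT and 7811 and 7536 in those labelled KO, higher in both of the latter (log2 fold change 0.17, SE 0.041, adjusted p = 9.82e-04 by limma) and 0.090 relative to its neighbours. Slc25a25 (chr2:32414487-32451470) had 1309, 1299 and 1433 normalized reads under the label WT and 1486 and 1550.2 under the label KO. The groups did not overlap, but the call at an adjusted p of 0.0122 (limma, log2 fold change 0.17, SE 0.058) was lost without WT replicate 1 (0.0597), WT replicate 2 (0.0555) or KO replicate 2 (0.0618). Relative to its neighbours it stood at 0.30. Slc25a23 (chr17:57043711-57059909) was a low transcript with 22.1, 34.6 and 49.0 normalized reads in the libraries labelled WT and 100.2 and 89.0 in those labelled KO. It had the highest log2 fold change of the tested members, 1.47 (SE 0.28, adjusted p = 8.33e-05 by limma), and stood above 50 of its 52 neighbours. Slc25a24 nonetheless made up 85.3, 86.2 and 84.1% of the summed RPKM of the 4 genes of this kind under the label WT and 85.0 and 84.2% under the label KO, against 0.44% and 1.05% on average for Slc25a23, and Slc25a41 stayed below the filter.

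Of 4 tested importers of iron and glutathione, 1 rose and 3 fell, a share called of 100% beside 65.3% of all genes. The iron importers showed the widest change in balance of the 9 paralog sets. The mitoferrins carry iron into the matrix for heme and iron-sulfur cluster synthesis: mitoferrin 1, encoded by Slc25a37, is the form of developing red cells, and mitoferrin 2, encoded by Slc25a28, is the form of most other tissues. Slc25a28 (chr19:43663801-43675006) had 912, 867 and 885 normalized reads in the libraries labelled WT and 1812 and 1873 in those labelled KO. Every library labelled KO lay far above every library labelled WT, a 2.07-fold difference (log2 fold change 1.05, SE 0.057, adjusted p = 6.76e-13 by limma). Slc25a37 (chr14:69241848-69285544) had 3179, 3285 and 3082 normalized reads under the label WT and 2316 and 2458 under the label KO. It was lower in both libraries labelled KO, by 1.33-fold (log2 fold change -0.42, SE 0.046, adjusted p = 8.01e-08 by limma). Around Slc25a28 the 105 neighbouring genes had a median of 0.50, and around Slc25a37 the 57 neighbours had -0.16. Relative to these, Slc25a28 stood at 0.55 and Slc25a37 at -0.25. Slc25a28 held 43.8, 41.7 and 43.8% of the pair's summed RPKM in the libraries labelled WT and 68.0 and 67.4% in those labelled KO. The larger share thus passed from Slc25a37 to Slc25a28, by 24.6 percentage points on average (exact permutation p = 0.2, the smallest this test allows). The pair's sum went from 36.4 ± 0.594 to 47.8 ± 0.971 RPKM.

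**Figure D3:**
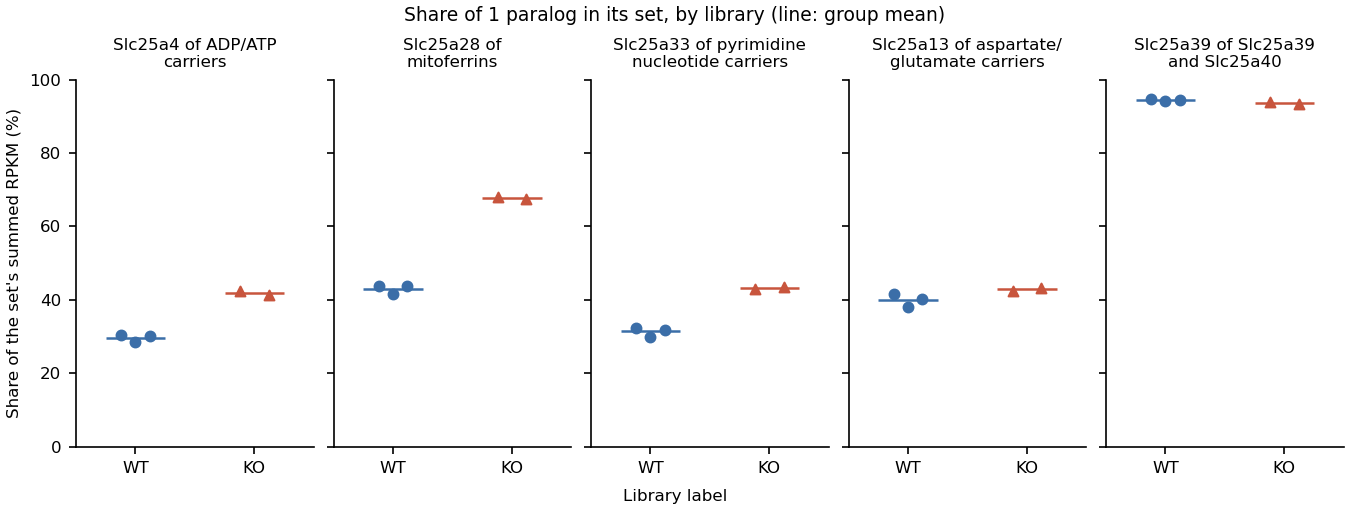
Share of a single gene in the summed RPKM of its paralogs in each library, in percent, for 5 sets of carriers with shared substrate. Circles are libraries labelled WT, triangles libraries labelled KO and lines group means. The share of Slc25a28 rises from 43.1% to 67.7% and that of Slc25a4 from 29.7% to 41.9%, while Slc25a39 keeps over 90% of its pair under both labels.

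Slc25a39 and Slc25a40 import glutathione, the main small thiol of the matrix, and both were lower in the libraries labelled KO. Slc25a39 (chr11:102402969-102408675), the fourth carrier by level, had 8423, 7890.1 and 8043 normalized reads in the libraries labelled WT and 6320.1 and 6212 in those labelled KO. The groups lay apart (log2 fold change -0.37, SE 0.039, adjusted p = 3.24e-08 by limma). Its 171 neighbours had a median of -0.38, and relative to them Slc25a39 stood at 0.012. Slc25a40 (chr5:8422730-8454839) had 771, 823 and 805 normalized reads under the label WT and 689 and 724 under the label KO, again with both libraries labelled KO below the others. Its call (log2 fold change -0.18, SE 0.069, adjusted p = 0.0287 by limma) was lost without WT replicate 2 (0.0883), WT replicate 3 (0.0763) or KO replicate 1 (0.13), and its value was -0.30 relative to its neighbours. Slc25a39 made up 94.8, 94.1 and 94.3% of the pair's RPKM in the libraries labelled WT and 93.9 and 93.5% in those labelled KO, a difference of less than 1 percentage point in the means (94.4% ± 0.349 and 93.7% ± 0.278).

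Of 8 tested amino acid carriers, 4 were called higher in the libraries labelled KO and 0 lower, with 4 not called. The share called was 50%, below the 65.3% of all genes. The aspartate/glutamate carriers are calcium-activated and form the mitochondrial arm of the malate-aspartate shuttle, which moves reducing equivalents of NADH into the matrix. Slc25a12 (chr2:71274270-71367781), the form of muscle and brain, had 1565, 1626 and 1645 normalized reads in the libraries labelled WT and 2056 and 1991 in those labelled KO. Slc25a13 (chr6:6041218-6217304), the form of liver known as citrin, had 1197, 1061 and 1184 normalized reads under the label WT and 1616 and 1626 under the label KO. For both genes each library labelled KO exceeded each labelled WT, with log2 fold changes of 0.33 (SE 0.050, adjusted p = 7.24e-06 by limma) and 0.50 (SE 0.060, adjusted p = 2.63e-07). The genes near Slc25a12 had a median of 0.044, and the 24 near Slc25a13 a median of 0.56, so that relative to neighbours the values were 0.28 and -0.060. The share of Slc25a13 in the pair's RPKM was 41.7, 37.9 and 40.3% under the label WT and 42.4 and 43.3% under the label KO, close to each other and still without overlap.

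Slc25a15 and Slc25a22 were the other called amino acid carriers. Slc25a15 (chr8:22375550-22398621) exchanges ornithine for citrulline, a step shared by the urea cycle and by ornithine metabolism. It had 597, 575 and 619 normalized reads in the libraries labelled WT and 978 and 899.6 in those labelled KO, 1.57-fold higher without overlap (log2 fold change 0.65, SE 0.072, adjusted p = 7.48e-08 by limma), and 0.19 above its neighbourhood median of 0.46. Its paralog Slc25a2 had at most 11.0 normalized reads in any library. Slc25a22 (chr7:141429749-141437874), a proton-coupled glutamate carrier, had 1558, 1477 and 1659.7 normalized reads under the label WT and 1969 and 1902 under the label KO. It was higher in both libraries labelled KO (log2 fold change 0.31, SE 0.055, adjusted p = 4.97e-05 by limma). This gene lies 547 kb from Sirt3, and the 91 genes around it had a median of 0.31, so that relative to them Slc25a22 stood at -0.00029. Its paralog Slc25a18 was low, at 28.3, 18.8 and 10.2 normalized reads under the label WT and 5.51 and 23.4 under the label KO, with overlapping groups. It was not called (log2 fold change -0.57, SE 0.51), but it was called without KO replicate 2 (-1.52, adjusted p = 0.0197 by limma), and without KO replicate 1 its value was 0.39. Slc25a38, the glycine carrier needed for heme synthesis, and Slc25a44, which carries branched-chain amino acids, had log2 fold changes of -0.014 (SE 0.065) and -0.034 (SE 0.048), and the basic amino acid carrier Slc25a29 had 0.37 (SE 0.26). None of these 3 was called.

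Of 5 tested carboxylate and acylcarnitine carriers, 3 were called lower and 0 higher, a share called of 60.0% beside 65.3% of all genes, and 1 of these calls, that of Slc25a1, was lost whichever library was left out. Slc25a10 (chr11:120491837-120501161), which exchanges malate or succinate for phosphate, had 4224, 4102 and 4115 normalized reads in the libraries labelled WT and 2818 and 2938 in those labelled KO. Both libraries labelled KO lay well below the others, by 1.44-fold (log2 fold change -0.53, SE 0.042, adjusted p = 3.92e-10 by limma). Neighbouring genes had a median of -0.35, leaving -0.18. Slc25a11 (chr11:70644019-70647531), the oxoglutarate/malate carrier that completes the malate-aspartate shuttle, had 2572, 2664 and 2624 normalized reads under the label WT and 2267 and 2237 under the label KO. It was lower without overlap (log2 fold change -0.22, SE 0.045, adjusted p = 2.26e-04 by limma), in a neighbourhood with a median near 0. The 2 kinds of carrier in the shuttle thus moved in opposite directions, Slc25a12 and Slc25a13 up and Slc25a11 down, of which Slc25a13 did not exceed its neighbourhood.

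Slc25a1 (chr16:17925211-17928219), which exports citrate for fatty acid and sterol synthesis, had 3607, 3568 and 3555 normalized reads in the libraries labelled WT and 3327 and 3355 in those labelled KO. The values were lower in both libraries labelled KO by 1.07-fold, but the call (log2 fold change -0.098, SE 0.041, adjusted p = 0.0403 by limma) was lost whichever of the 5 libraries was left out, with adjusted p between 0.0539 and 0.108. Relative to its neighbours it stood at -0.016. Slc25a20 (chr9:108662136-108684642), which brings acylcarnitines to fatty acid oxidation, had 666, 591 and 599 normalized reads under the label WT and 594 and 565 under the label KO. These groups overlapped and it was not called (log2 fold change -0.093, SE 0.079, adjusted p = 0.315 by limma). The oxodicarboxylate carrier Slc25a21 was not called either, with a log2 fold change of -0.29 (SE 0.18).

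Cofactor carriers were split, with 2 of 6 called higher and 3 lower (83.3% called, beside 65.3% of all genes). Slc25a26 (chr6:94500295-94604659) imports S-adenosylmethionine, the methyl donor for mitochondrial RNA and proteins. It had 214, 249 and 261 normalized reads in the libraries labelled WT and 355 and 356 in those labelled KO, higher in both of the latter (log2 fold change 0.56, SE 0.11, adjusted p = 1.68e-04 by limma) and 0.31 relative to its neighbours. Slc25a42 (chr8:70184340-70212281), a carrier of coenzyme A, had 192, 153 and 162 normalized reads under the label WT and 225 and 267 under the label KO. It too was higher without overlap (log2 fold change 0.54, SE 0.14, adjusted p = 0.00157 by limma), but its 111 neighbours had a median of 0.57, which leaves -0.027.

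Slc25a16 (chr10:62920632-62946494), a gene linked to coenzyme A import, had 1188, 1199.9 and 1187 normalized reads under the label WT and 1047 and 1099 under the label KO. Slc25a32 (chr15:39091230-39112720), a carrier of folate and FAD, had 2037, 2181 and 2148 under the label WT and 1926 and 1955 under the label KO. Both were lower in each library labelled KO, with log2 fold changes of -0.15 (SE 0.058, adjusted p = 0.026 by limma) and -0.13 (SE 0.049, adjusted p = 0.026). Neither call was stable. The Slc25a16 call was lost without WT replicate 1, 2 or 3 (0.0594, 0.0587 and 0.0628) or KO replicate 1 (0.138), and the Slc25a32 call without WT replicate 2 (0.0888), WT replicate 3 (0.0874) or KO replicate 1 (0.0715). The peroxisomal carrier Slc25a17 had a log2 fold change of 0.0081 (SE 0.049) with overlapping groups.

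Uncoupling protein 2 was the most prominent of the uncoupling proteins and their relatives, of which 3 of 4 tested were called higher and 0 lower. The share called was 75.0%, beside 65.3% of all genes, and 1 of these calls, that of Slc25a27, was not stable. Ucp2 encodes a carrier that passes protons and small carboxylates and is found in many cell types. At chr7:100493337-100499629, it had 3402, 3508 and 3387 normalized reads in the libraries labelled WT and 6452 and 6989 in those labelled KO. The groups were far apart, at a 1.96-fold difference (log2 fold change 0.97, SE 0.043, adjusted p = 1.94e-14 by limma). In contrast to Slc25a4, Ucp2 rose where the median of nearby genes did not: the 79 genes around it had a median of -0.15, Ucp2 stood above 74 of them, and relative to that median its value was 1.12. Ucp1, the protein of brown fat, reached at most 5.56 normalized reads, and Ucp3, the form of muscle, at most 2.78 and 0 in both libraries labelled KO. Ucp2 therefore made up 99.9, 99.9 and 99.7% of the summed RPKM of the 3 genes under the label WT and 99.9 and 99.8% under the label KO. On the other strand Ucp2 overlaps Dnajb13, with which 6.50% of its 50-base windows are shared.

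Slc25a30 (chr14:75757534-75787037), a relative first described in kidney, had 1843, 1858 and 1944 normalized reads in the libraries labelled WT and 2175 and 2152 in those labelled KO. Both of the latter were higher (log2 fold change 0.20, SE 0.048, adjusted p = 0.00101 by limma). Slc25a27 (chr17:43637739-43667214), known as UCP4 of brain, had 135, 132 and 118 normalized reads under the label WT and 161 and 185 under the label KO. It was higher without overlap (log2 fold change 0.42, SE 0.15, adjusted p = 0.0149 by limma), but not called without WT replicate 3 (0.0554) or KO replicate 2 (0.118), and 0.090 relative to its neighbours. Slc25a14, known as UCP5, was not called (log2 fold change -0.077, SE 0.15).

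Of 5 tested carriers with no assigned substrate group, 1 was called higher and 1 lower (40.0% called, beside 65.3% of all genes). Slc25a45 (chr19:5877801-5885768) had the lowest log2 fold change of the tested members. It had 103, 116 and 139.7 normalized reads in the libraries labelled WT and 38.5 and 47.8 in those labelled KO, 2.77-fold lower without overlap (log2 fold change -1.45, SE 0.20, adjusted p = 1.63e-06 by limma). Its neighbours went the other way, with a median of 0.31, and only 4 of the 206 lay below it. Slc25a47 (chr12:108849833-108856815), known from liver, had 277, 224 and 230.4 normalized reads under the label WT and 291 and 318 under the label KO and was called higher (log2 fold change 0.33, SE 0.12, adjusted p = 0.0199 by limma). That call was lost without WT replicate 2 (0.0875), WT replicate 3 (0.0576) or KO replicate 2 (0.104), while its value relative to its neighbours was 0.48. The other members of this group, Slc25a35, Slc25a43 and the outer membrane protein Slc25a46, had log2 fold changes of 0.57 (SE 0.40), -0.15 (SE 0.35) and 0.045 (SE 0.057) and were not called. Slc25a34 and Slc25a48 were below the filter, with at most 5.94 and 3.30 normalized reads in any library.

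Several rises and falls of carriers ran with those of the genes around them. Across the 40 members, the log2 fold change and the median of the neighbouring genes had a Pearson correlation of 0.46 and a Spearman correlation of 0.47, against 0.23 and 0.35 across 12870 genes with a position; genes are not independent here, since all share the same 5 libraries and neighbours share windows. Of the 29 called members, 20 (69.0%) had the sign of their neighbours, close to 68.2% of all called genes. After the neighbourhood median was subtracted, 9 of the 29 called members (31.0%) lay within 0.1 of it, beside 1314 of 8404 called genes with a position (15.6%). The median absolute log2 fold change went from 0.32 to 0.18 over the members and from 0.30 to 0.25 over all genes with a position. On chromosome 8 all 3 tested members, Slc25a4, Slc25a15 and Slc25a42, were higher. Of the genes around them, 70.4%, 77.8% and 75.7% were called higher too, beside 32.6% of all genes. On chromosome 11, 4 of 5 were lower, among them Slc25a10, Slc25a11 and Slc25a39, beside 32.6% of all genes called lower. Of the genes around these 3, 5.47%, 31.0% and 5.85% were called higher, beside 32.6% of all genes. The genes around Slc25a11 were thus near the share of all genes, with a median log2 fold change of -0.0028. The called members furthest from their neighbourhoods were Slc25a45, Ucp2, Slc25a23 and Slc25a28. Whether regional differences between the lines set any of these values was not tested.

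**Figure D4:**
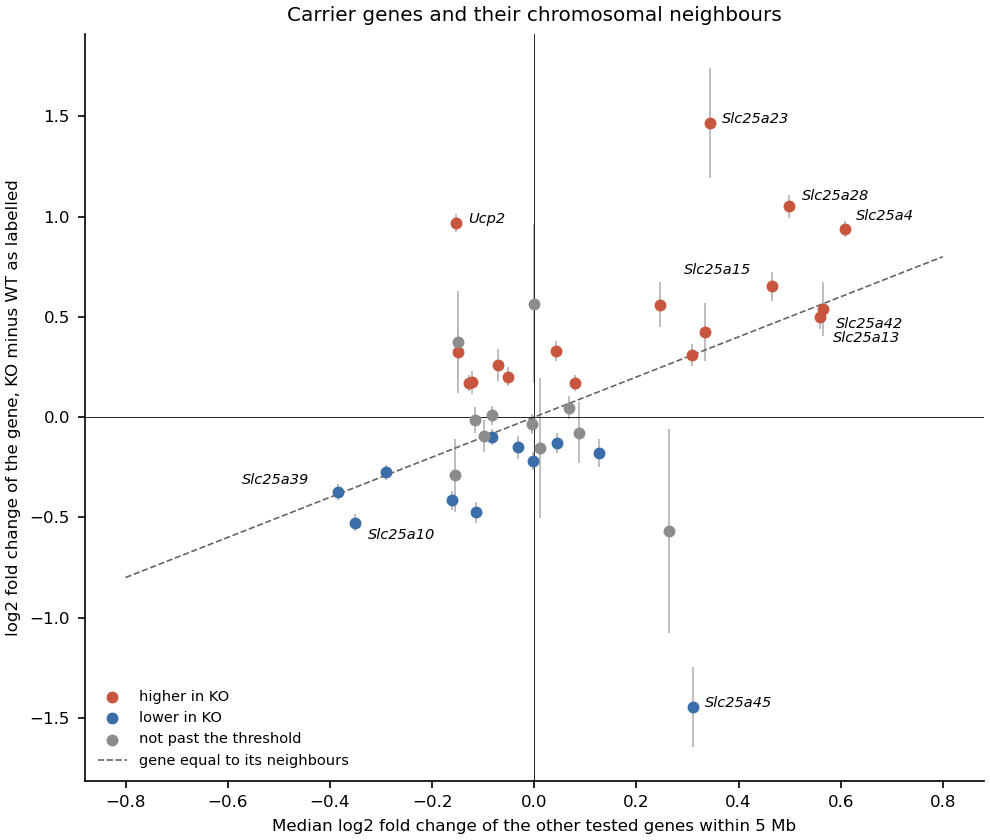
Log2 fold change of 39 tested carrier genes against the median log2 fold change of the other tested genes that start within 5 Mb, libraries labelled KO minus libraries labelled WT. Vertical bars are standard errors and the dashed line marks a gene equal to its neighbours. Slc25a39, Slc25a42 and Slc25a13 lie close to the line, and Ucp2, Slc25a23 and Slc25a45 far from it.

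Of 13 genes for the import of carriers (receptors and pore of the outer membrane, the small TIM chaperones and the TIM22 complex), 7 were higher and 1 lower, with a median log2 fold change of 0.19. The 61.5% called lay below the 65.3% of all genes. The receptor genes Tomm20 and Tomm70a, which bind precursors at the surface, had log2 fold changes of 0.94 (adjusted p = 1.09e-14 by limma) and 0.47 (adjusted p = 4.54e-09). Tomm22, the receptor at the pore, had 0.19 (adjusted p = 7.92e-04 by limma). Of the chaperones and TIM22 subunits, Timm10b (Fxc1 in the table), Agk and Timm10 had 0.84, 0.62 and 0.32 (adjusted p = 9.14e-08, 2.51e-06 and 0.00567 by limma). The channel of the TIM22 complex, Timm22, was not called (0.068, SE 0.064). The call for a lower level was that of the TIM22 subunit Timm29 (1810026J23Rik in the table), at -0.11 (adjusted p = 0.0268 by limma) in a neighbourhood with a median of -0.11. Tomm20 lies in a neighbourhood with a median of 1.00, higher than its own value, and those of Timm10b and Agk had medians of 0.31 and 0.30.

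Of 23 other transporters of the mitochondrial membranes, 11 were higher and 5 lower (69.6% called, near the 65.3% of all genes), with a median of 0.097. Of the calcium uniporter genes, Mcu and Mcub (listed as Ccdc109a and Ccdc109b) fell, with log2 fold changes of -0.61 and -1.29 (adjusted p = 6.62e-10 and 9.74e-12 by limma), while Micu3 was higher (0.73, adjusted p = 7.33e-07, in a neighbourhood with a median of 0.48) and Micu2 and Smdt1 were not called (0.034, SE 0.055, and -0.058, SE 0.063). The heme-linked transporter Abcb10, the outer membrane channel Vdac3 and the sideroflexin Sfxn2 had 1.51, 0.90 and 0.84 (adjusted p = 1.52e-16, 5.07e-14 and 2.72e-10 by limma), in neighbourhoods with medians of 1.00, 0.46 and 0.53. The pyruvate carrier genes Mpc1 and Mpc2 were not called (-0.10, SE 0.11, and 0.098, SE 0.11).

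Of 25 tested enzymes that work with the carriers, 12 were higher and 6 lower (72.0% called, near the 65.3% of all genes), with a median of 0.047. Cytosolic aspartate aminotransferase Got1, the partner of Slc25a12 and Slc25a13 in the malate-aspartate shuttle, had 1425, 1293 and 1299 normalized reads in the libraries labelled WT and 3401 and 3334 in those labelled KO. It was 2.52-fold higher without overlap (log2 fold change 1.33, SE 0.053, adjusted p = 2.43e-15 by limma), in a neighbourhood with a median of 0.50. In the same shuttle Mdh1 and Got2 had 0.29 and 0.18 (adjusted p = 3.14e-06 and 1.77e-04 by limma) in neighbourhoods with medians of 0.22 and 0.13, and Mdh2 was not called (-0.0016, SE 0.038). Ornithine aminotransferase Oat, whose substrate Slc25a15 carries, had 0.61 (adjusted p = 1.50e-10 by limma), where the neighbouring genes had a median of 0.32. Thymidine kinase Tk2, which phosphorylates pyrimidine deoxynucleosides in the matrix, had 0.73 (adjusted p = 6.31e-08 by limma), with a neighbourhood median of 0.24. Cytosolic Idh1 was higher (0.49) and matrix Idh2 lower (-0.30), and glutamate dehydrogenase Glud1 was lower (-0.31), with adjusted p of 1.65e-08, 4.28e-07 and 2.28e-07 by limma and neighbourhood medians of -0.048, -0.21 and -0.010. Citrate-using Acly, a partner of Slc25a1, was not called (-0.070, SE 0.036).

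Of the 47 members, 23 overlap another annotated gene, 18 of them one on the opposite strand, and whether counting used strand is not given in the sources used here. Among the genes named with values in every library this applies to 11, including Slc25a10, Slc25a11, Slc25a36, Slc25a37, Slc25a33, Slc25a26, Slc25a23 and Ucp2. If counting ignored strand, reads from the stretch where such a gene and its partner overlap cannot be told apart. Of the 50-base windows of the longest transcript, on either strand, 9.07% for Slc25a10, 11.8% for Slc25a36, 5.67% for Slc25a37, 12.6% for Slc25a33, 4.69% for Slc25a26, 6.50% for Ucp2 and 0% for Slc25a11 also occur in transcripts of other genes. For Slc25a23, a low transcript, the share was 2.90%.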

How the data were processed

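Poly-T selected RNA of 5 libraries was sequenced on an Illumina NextSeq after Nextera XT preparation, per the labels' protocols. Alignment and comparison tools (STAR, DESeq2) and the build mm10 come from the submitters' processing notes; versions, the counting program and its annotation are not given in the sources used. The signal values are read counts that the authors divided by a size factor per library: 100% were whole multiples of a step, within 0.1 reads. RPKM values, a log2 fold change, a Wald score and p-values were also deposited by the authors, per the file headers.

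The members and gene lists were chosen with earlier results of these data known. Samples were grouped by title. The fit was run with limma 3.58.1 (R 4.3.3), a trended prior and Benjamini-Hochberg adjustment, on log2(normalized reads + 1) for the 13062 genes that reached 10 in 2 or more libraries; this scale understates the fold changes of low genes. Values in every library are given for 17 carriers fixed by their function and, per substrate group, for up to 4 called members with the largest change and a mean of 50 or more; of each list of partner genes, up to 6 called members with the smallest adjusted p are named, and other genes of a pathway beside them were named with their values in view. Shares of paralogs used RPKM and an exact two-sided permutation test, whose p is the smaller tail doubled. Positions came from RefSeq (GRCm38.p6, which is also mm10) for 23062 genes, 2306 of them by a synonym, and the neighbourhood of a gene is the tested genes starting within 5 Mb, if at least 10. Shared windows and overlaps were computed from GENCODE transcripts. Alternatives were pseudocounts of 0.5 and 5, no filter or a mean of 50, TMM and median-ratio rescaling, and RPKM with a pseudocount of 0.1. Others were each library left out (a lone library labelled KO was assumed to vary like the others), a replicate block and the authors' comparison. The last were 2 count tests, DESeq2 1.42.0 and edgeR 4.0.16, on reads recovered for 4 libraries. The size factor of WT replicate 2 is near 1, so its recovered reads were less certain and were left out of these 2 tests. Symbols turned into dates by a spreadsheet (25) could not be named, and some results are left out here. The fit was tested on simulated counts.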

Additional observations from a re-analysis of the deposited data

How the results depend on the processing

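Of the 29 called carriers, 20 kept their call in all 16 alternative tests and 9 lost it in at least 1 (among them Slc25a1, Slc25a16, Slc25a25, Slc25a27, Slc25a32, Slc25a33, Slc25a40 and Slc25a47), without a change of sign. The members counted as higher ranged from 14 to 17 and those as lower from 8 to 11 when a library was left out. With DESeq2 on 4 libraries, 7 members were lower and 5 import genes were called, and fewer genes were called in all, 6965 against 8523. The authors' comparison had 15 members higher and 8 lower, with 7686 of 15222 genes called in all. In it Slc25a1, Slc25a16, Slc25a27, Slc25a32, Slc25a40 and Slc25a47 were not called (adjusted p of 0.0608 to 0.0936 by the authors' DESeq2). No label pairs the libraries by number, and deviations of same-numbered libraries correlated at -0.01 and -0.005. A replicate block, in which WT replicate 3 stands alone and adds nothing, called 16 members higher and 8 lower and 7905 genes in all. Rescaling by TMM or median ratios left the median log2 fold change of all genes at 7.6e-05 and -0.0016 and changed no member's call. Subtraction of the neighbourhood median turned the sign of 6 called members, among them Slc25a39 (0.012), Slc25a3 (0.014), Slc25a13 (-0.060), Slc25a22 (-0.00029) and Slc25a42 (-0.027), and left Sirt3 at 0.22. Without 1 library, members not called ranged over both signs: Slc25a46 from -0.021 to 0.11, Slc25a18 from -1.52 to 0.39, Slc25a43 from -0.35 to 0.069, Slc25a14 from -0.27 to 0.11, Slc25a38 from -0.068 to 0.041 and Slc25a17 from -0.019 to 0.037. Slc25a43 was at 0.072 with edgeR and 0.066 with DESeq2. The share of Slc25a2 in its pair differed by -0.88 to 0.057 percentage points and that of Ucp1 in its trio by -0.031 to 0.084. The cause was not tested. Slc25a18, Slc25a35 and Slc25a43, the lowest members tested, rest on few reads. With 5 libraries the exact test of a share, with the smaller tail doubled, cannot fall below 0.2.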

Other observations

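The deposited table lists the NAD carrier gene now named Slc25a51 under its older symbol Mcart1, and Slc25a53 under Mcart6; neither was counted among the members. Mcart1 had 4025, 3967 and 4201 normalized reads in the libraries labelled WT and 3173 and 3471 in those labelled KO. Both libraries labelled KO were lower without overlap (log2 fold change -0.29, SE 0.046, adjusted p = 9.70e-06 by limma). By RPKM it stood at 24.6, 24.2 and 25.6 under the label WT and 19.4 and 20.9 under the label KO. Mcart6 was lower in level, at 121, 121 and 128 normalized reads against 122 and 111, and was not called (log2 fold change -0.078, SE 0.15).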
